A study of Mus musculus with 9 samples.

Results

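Eosinophils store a small set of strongly basic proteins in their granules and carry receptors that tie the cell to interleukin-5 and to eotaxin chemokines. The 6 genes described here encode 3 of the granule proteins (Prg2, Prg3 and Epx) and 3 surface receptors used to recognise mouse eosinophils (Il5ra, Siglecf and Ccr3), of 19937 genes measured. They were chosen by name as eosinophil genes, with differences between the knockdown and control arrays of this series already known. For that reason their differences from the control are given as a description. No p-value is given for them, and where they are counted among the called genes of the whole table nothing is read from the count. Each gene had 1 probe set with a single gene symbol, which was used. Had a gene had several, the brightest on average would have been taken.

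The samples were total RNA of a murine leukaemia cell line of B6/SJL (CD45.2) background that carries the fusion MLL-AF9 together with NrasG12D, so all groups share both oncogenes. Cells were transduced with an MSCV retrovirus of the LMN type and taken on day 5. The 3 groups received an shRNA against Renilla luciferase (Rluc), which serves as the control, an shRNA against Eed, or an shRNA against Suz12, with 3 arrays in each group and 9 in all. Eed and Suz12 encode core parts of Polycomb repressive complex 2 (PRC2), the complex that places the repressive methyl mark on histone H3, and the series recorded expression after their knockdown in this leukaemia. All arrays stem from 1 cell line, each target stands under 1 shRNA name, and the labels do not say whether arrays of a group came from separate cultures, so the p-values measure nothing but the spread between these arrays, and that spread may be technical.

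The granule of the eosinophil is a store for host defence against parasites and a source of tissue damage in allergic disease. Prg2 encodes the major basic protein that forms the granule's crystalline core, Prg3 a related second major basic protein, and Epx the eosinophil peroxidase, a relative of neutrophil myeloperoxidase. Il5ra encodes the chain of the interleukin-5 receptor that binds the cytokine, Siglecf an inhibitory receptor for sialic acid that is also found on alveolar macrophages, and Ccr3 the receptor for eotaxins. In marrow, granule genes are switched on in committed eosinophil precursors by factors of the GATA and C/EBP families together with PU.1.

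Values are log2 intensities summarised per probe set by robust multi-array average (RMA), with array medians between 6.86 and 6.95. RMA gives no detection call. As a guide to background serves the level under which 95% of 1015 olfactory receptor genes lay in the controls, 6.33. Genes of myeloid and MLL-AF9 leukaemia identity lay above it, 10 of 10 measured, among them Ptprc, Itgam, Hoxa9 and Meis1. Eed fell by 1.75 in its own knockdown (log2, limma adjusted p = 3.1e-07), and Suz12 fell by 1.98 in its own (log2, limma adjusted p = 5.44e-08). A gene is called where the limma model gives an adjusted p (Benjamini-Hochberg, over all 19937 genes) under 0.05.

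The sequences before the start of the genes are shown because the granule genes and Il5ra moved in the same direction while Siglecf and Ccr3 did not follow. RefSeq promoter entries of build GRCm38.p6 were matched for 5 of the 6 genes, the exception being Prg2. Each line gives the 230 bases from 250 to 21 bases before the start that the RefSeq table gives, 5′ to 3′ on the gene's strand. For Ccr3 that start lies inside the annotated span of the gene, and for Prg3 it lies just inside the edge of the span. Capitals mark GATAA, the core of the motif bound by GATA factors, or its reverse complement TTATC.
Prg3, chr2:84987965-84988194, plus strand: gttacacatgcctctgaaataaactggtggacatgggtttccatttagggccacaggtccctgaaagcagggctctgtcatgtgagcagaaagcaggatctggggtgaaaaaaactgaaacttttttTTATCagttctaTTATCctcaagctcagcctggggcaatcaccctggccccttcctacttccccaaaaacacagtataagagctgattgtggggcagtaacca
Epx, chr11:87875557-87875786, minus strand: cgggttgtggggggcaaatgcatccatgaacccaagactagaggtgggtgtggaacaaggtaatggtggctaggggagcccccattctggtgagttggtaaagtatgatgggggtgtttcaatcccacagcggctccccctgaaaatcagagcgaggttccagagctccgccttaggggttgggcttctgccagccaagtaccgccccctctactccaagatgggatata
Il5ra, chr6:106749058-106749287, minus strand: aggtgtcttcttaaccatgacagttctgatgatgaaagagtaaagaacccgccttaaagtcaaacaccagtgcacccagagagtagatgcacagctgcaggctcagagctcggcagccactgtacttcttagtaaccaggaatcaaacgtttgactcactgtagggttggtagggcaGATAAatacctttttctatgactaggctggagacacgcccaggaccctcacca
Siglecf, chr7:43351091-43351320, plus strand: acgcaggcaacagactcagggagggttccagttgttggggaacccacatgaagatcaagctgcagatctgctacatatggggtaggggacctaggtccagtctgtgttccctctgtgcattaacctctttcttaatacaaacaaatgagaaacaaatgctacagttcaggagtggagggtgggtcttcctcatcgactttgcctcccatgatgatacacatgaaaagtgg
Ccr3, chr9:124021721-124021950, plus strand: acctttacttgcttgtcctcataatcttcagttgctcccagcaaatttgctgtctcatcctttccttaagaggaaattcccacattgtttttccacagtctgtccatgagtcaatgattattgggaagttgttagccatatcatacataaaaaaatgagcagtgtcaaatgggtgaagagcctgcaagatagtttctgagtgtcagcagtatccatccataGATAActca

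Prg3 held 2 GATAA matches, both on the opposite strand, at 123 to 119 and 111 to 107 bases before its start. Il5ra held 1, at 73 to 69 bases, and Ccr3 held 1, at 29 to 25 bases. Epx and Siglecf held 0. Of 32851 promoters cut to the same window, 21.5% hold GATAA on either strand, so the motif is common. A link between the motif and the differences of these genes was not tested. The letters GAGGAA, a core bound by PU.1, occurred once before Siglecf and once before Ccr3 (21.3% of promoters), and TTGCNNAA, a C/EBP form, occurred before none of the 5 (9.05% of promoters). TATAA occurred once before Prg3, at 49 to 45 bases (21.9% of promoters). All were searched on both strands, and none of these matches overlapped a GATAA match. The windows were poor to middling in CG dinucleotides, with 0 for Prg3 and for Ccr3, 2 for Siglecf, 4 for Il5ra and 5 for Epx, against a median of 5 over all promoters. A match is a description of the letters and not a bound site.

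Prg2 was the gene with the largest rise in the whole table in each knockdown. It lies at chr2:84980461-84983632. On the control arrays it stood at 6.29, 6.66 and 6.53 (log2, replicates 1 to 3), close to the background guide. Under Eed shRNA it was at 10.70, 10.87 and 10.84, and under Suz12 shRNA at 10.93, 11.26 and 11.30. All 6 knockdown arrays lay far above all 3 control arrays, with no overlap. The group means were 6.49 ± 0.19, 10.80 ± 0.09 and 11.17 ± 0.20 (log2, SD, n = 3 each), which is 19.9-fold under Eed shRNA (4.31, SE 0.11) and 25.5-fold under Suz12 shRNA (4.67, SE 0.11).

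Prg3, the neighbour of Prg2 at chr2:84988196-84996559, was at 6.89, 7.16 and 7.01 on the control arrays. It was at 9.20, 9.20 and 9.31 under Eed shRNA and at 9.38, 9.53 and 9.53 under Suz12 shRNA, again with no overlap with the controls. Its difference was smaller than that of Prg2, at 2.22 (SE 0.07) and 2.46 (SE 0.07), or 4.64-fold and 5.50-fold. It ranked 12 from the top of all genes under Eed shRNA and 10 under Suz12 shRNA.

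Epx, on another chromosome at chr11:87863997-87875536, was at 6.61, 6.49 and 6.33 on the control arrays, close to the background guide. Under Eed shRNA it was at 9.16, 9.32 and 9.22 and under Suz12 shRNA at 9.16, 9.37 and 9.50. The knockdown groups overlapped each other, and neither overlapped the controls. The difference was 2.75 (SE 0.09) and 2.87 (SE 0.09), or 6.74-fold and 7.30-fold, rank 6 and rank 5 of all genes. For all 3 granule genes the spread between arrays of a group stayed at or under 0.20 (SD), a small part of the difference.

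Il5ra was the only one of the surface genes with a difference outside the spread between arrays. At chr6:106710375-106749037, it was at 5.64, 5.23 and 5.23 on the control arrays, at 6.15, 6.15 and 6.02 under Eed shRNA and at 6.33, 6.37 and 6.42 under Suz12 shRNA. Every knockdown array was above every control array, although control replicate 1 stood clearly over the other 2 controls. The difference was 0.74 (SE 0.10) under Eed shRNA and 1.01 (SE 0.10) under Suz12 shRNA. The second difference was at the 2-fold limit, and was 0.94 without control replicate 2, 0.94 without control replicate 3 and 0.98 without Suz12 shRNA replicate 3 or after centring on array medians. These levels were low, where differences are less certain. The controls and the Eed shRNA arrays lay under the background guide of 6.33, and the Suz12 shRNA mean of 6.37 lay just over it.

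Siglecf was well above the guide already in the control cells and did not move with the granule genes. At chr7:43351341-43359475, it was at 8.74, 8.77 and 8.88 on the control arrays, at 8.59, 8.75 and 8.78 under Eed shRNA and at 8.64, 8.78 and 8.61 under Suz12 shRNA. The 3 groups overlapped. The difference was -0.09 (SE 0.07) and -0.12 (SE 0.07).

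Ccr3, at chr9:124017825-124031692, stayed under the background guide on all 9 arrays. It was at 5.57, 5.54 and 5.46 in the controls, at 5.45, 5.42 and 5.53 under Eed shRNA and at 5.59, 5.72 and 5.46 under Suz12 shRNA. The groups overlapped, and the differences were -0.06 (SE 0.06) and 0.07 (SE 0.06). A level under the guide says that these arrays did not resolve the transcript from background, not that it is absent.

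**Figure D1:**
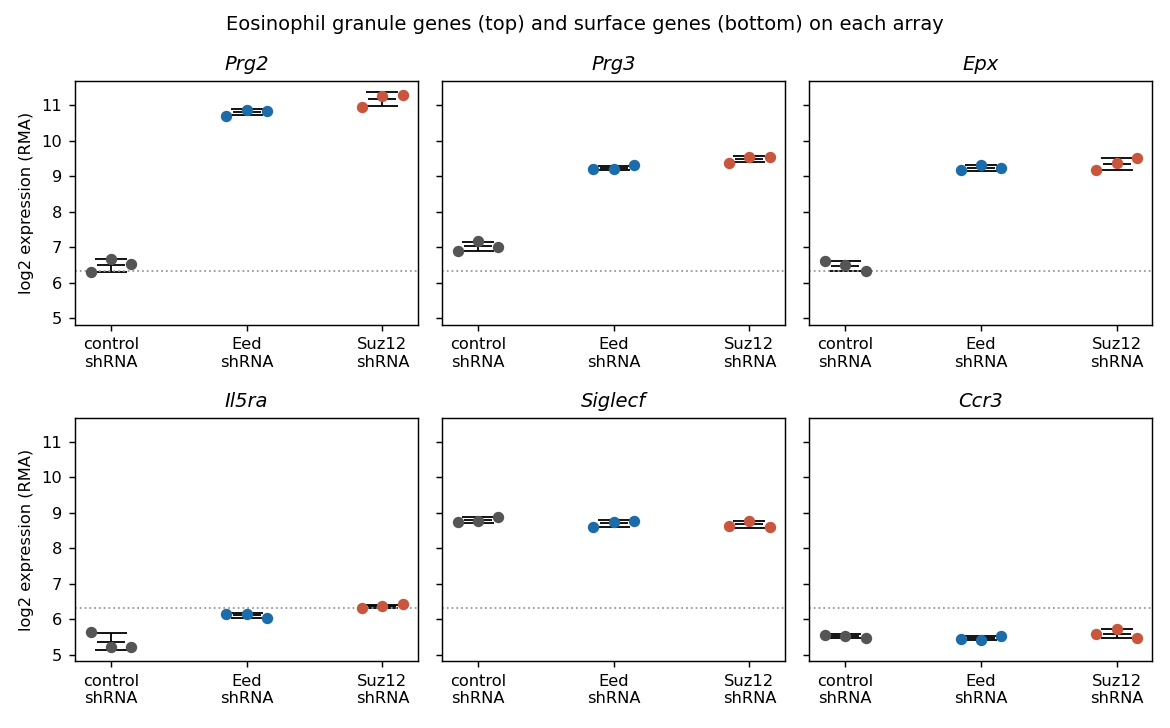
Log2 expression (RMA, vertical axis) of the 6 genes on each of the 9 arrays, by group; each dot is 1 array, horizontal ticks and bars give the mean ± SD (n = 3) and the dotted line is the background guide at 6.33. Prg2, Prg3 and Epx sit between 9.16 and 11.30 in both knockdowns against 6.29 to 7.16 in the controls, Il5ra rises from a level under the guide, and Siglecf and Ccr3 overlap between groups.

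The members thus fell into granule genes with large differences and surface genes with a smaller one (Il5ra) or one within the spread (Siglecf and Ccr3). Of the 6, 4 were called higher in each comparison with the control, Prg2, Prg3, Epx and Il5ra both times, and Siglecf and Ccr3 were not called. Of all genes, 8.78% were called higher and 13.1% lower under Eed shRNA, and 8.25% higher and 12.9% lower under Suz12 shRNA. Since both comparisons had been in view when the genes were chosen, the counts describe the choice and test nothing. The split of all calls depends on the scaling. It was 1750 higher against 2602 lower under Eed shRNA (1644 against 2578 under Suz12 shRNA), but 2252 against 1983 (2208 against 1800) after cyclic loess and 1379 against 3304 (1433 against 2980) after centring on array medians.

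A difference of at least 2-fold upwards was seen in 3 members under Eed shRNA and in 4 under Suz12 shRNA (3 where Il5ra falls just short of it), against 0.757% and 0.838% of all genes. The arrays of the knockdown lay wholly above the controls in 4 members in each comparison, against 12.9% of all genes under Eed shRNA and 11.9% under Suz12 shRNA. Members had a median of 1.48 and 1.73 (log2), beside -0.01 and -0.02 over all genes. The comparisons share their control arrays. In bulk RNA, more cells with an eosinophil programme and more of these transcripts per cell cannot be told apart.

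The knockdowns were then compared with each other, a contrast that did not choose the genes. Prg2 was higher under Suz12 shRNA than under Eed shRNA by 0.36 (log2, 95% interval 0.12 to 0.61, limma adjusted p = 0.519). Prg3 was higher by 0.24 (0.09 to 0.40, limma adjusted p = 0.476) and Il5ra by 0.26 (0.05 to 0.48, limma adjusted p = 0.726). In these 3 genes every Suz12 shRNA array was above every Eed shRNA array, as was the case for 4.60% of all genes. Epx differed by 0.11 (-0.09 to 0.32, limma adjusted p = 0.913), Siglecf by -0.03 (-0.18 to 0.12, limma adjusted p = 0.978) and Ccr3 by 0.12 (-0.02 to 0.27, limma adjusted p = 0.854).

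None of the 6 members was called in this contrast by limma, in which 0.176% of all genes were, and 3 of the 6 (Prg2, Prg3 and Il5ra) had an unadjusted p under 0.05, as did 6.06% of all genes. Over all genes 35 were called, a number that fell to between 8 and 18 when any 1 of the 6 knockdown arrays was left out: 10, 8 and 11 without Eed shRNA replicates 1, 2 and 3, and 12, 16 and 18 without Suz12 shRNA replicates 1, 2 and 3. The intervals reach up to 0.61 for Prg2 and 0.48 for Il5ra, so a larger response under Suz12 shRNA of that size is within the error. A missed threshold does not show that the knockdowns acted alike.

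**Figure D2:**
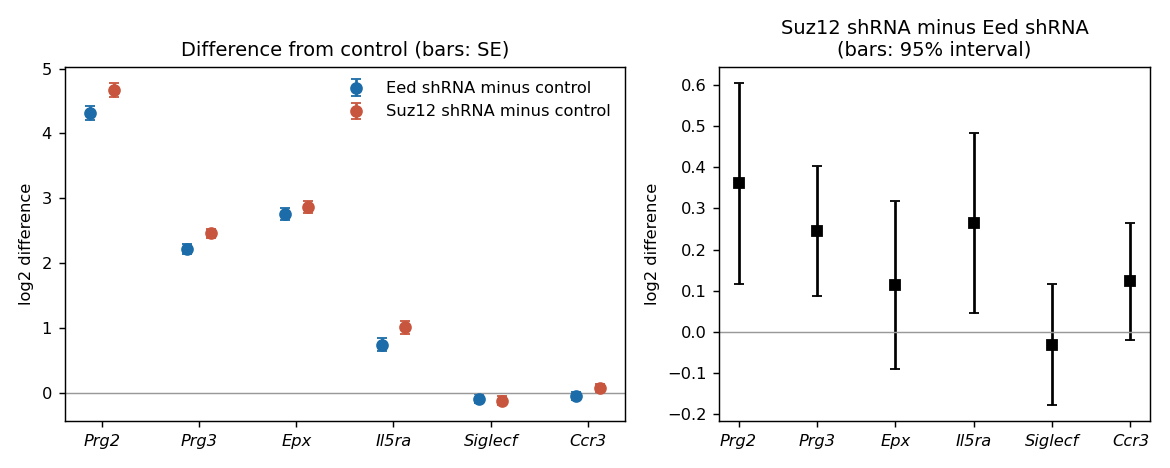
Left, log2 difference of each of the 6 genes from the control under Eed shRNA and Suz12 shRNA (dots, bars are the SE of the limma model); right, log2 difference of Suz12 shRNA minus Eed shRNA (squares, bars are 95% intervals), both with n = 3 arrays per group. Prg2 has the largest differences, 4.31 and 4.67, Siglecf and Ccr3 lie near 0, and in the right panel the intervals of Prg2, Prg3 and Il5ra lie above 0 before adjustment over all genes.

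Within the Suz12 shRNA group, replicate 1 had the lowest value in Prg2, Prg3, Epx and Il5ra, and replicate 3 or 2 the highest. The share of all genes that were lowest on replicate 1 was not counted, so nothing is read from this order. Suz12 itself was at 10.14, 10.06 and 10.28 on these arrays, and a link between its level and these genes was not tested. In the controls the order differed between genes, since replicate 1 was lowest for Prg2 and Prg3 but highest for Epx and Il5ra.

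Genes with the pattern most like that of a granule gene were found by the root mean square distance over the 9 arrays, after each gene was set to its own control mean. Closest to Epx were Adgre4, an adhesion receptor of myeloid cells (distance 0.19, log2 difference 2.57 under Eed shRNA and 2.76 under Suz12 shRNA), Cd200r3, an activating receptor of basophils and mast cells (0.27), and Ly6g, a neutrophil surface marker (0.31). Closest to Prg3 were Ly6g (0.16), Serpinb8 (0.18) and Cd200r3 (0.22). Prg2 lay further from its nearest genes. The distance includes the size of a difference, and Prg2 had the largest rise of all genes. Its nearest genes were Mmp9, the gelatinase of neutrophil granules (0.74, with differences of 3.34 and 3.92), Thbs1 (1.16) and Serpinb2 (1.27). These distances describe the 9 arrays, and no other eosinophil gene of the 6 was among the nearest 3 of any.

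The gene lists from here on were drawn up with earlier results of these data known. Their counts and p-values against the control are therefore given as a description. Of all genes, 8.78% were called higher and 13.1% lower under Eed shRNA, and 8.25% higher and 12.9% lower under Suz12 shRNA. Genes of the interleukin-5 receptor and its signalling changed in both directions. Of 13 measured, 8 rose, 3 fell and 2 were not called under Eed shRNA, and 5 rose, 2 fell and 6 were not called under Suz12 shRNA (median 0.22 and 0.17, all genes -0.01 and -0.02). Csf2rb2, the interleukin-3 receptor's own beta chain in mouse, had a rise of 1.0 under Eed shRNA and 1.05 under Suz12 shRNA (log2, SE 0.05 each), the order used for pairs of values from here on. Csf2rb, the beta chain that Il5ra needs to signal, rose by 0.70 and 0.70 (limma adjusted p = 1.5e-05 and 1.52e-05). The kinase gene Jak1 rose by 0.56 and 0.54, and Cish, a feedback inhibitor switched on by STAT5, rose by 0.60 and 0.45. The genes of this list that fell, named after their values were seen, were Stat5a (-0.20 and -0.24), Ptpn11 (-0.18 and -0.18) and Pim1 (-0.48 and -0.38). The fall of Pim1 was not called under Suz12 shRNA. The count of rises under Eed shRNA was 5 in a fit of only the 2 groups compared. It was also 5 without control replicate 1, control replicate 3 or Eed shRNA replicate 3. The count under Suz12 shRNA was 8 after quantile normalization or cyclic loess, and falls were 4 without control replicate 1. After cyclic loess none of the 3 falls under Eed shRNA was called by limma.

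Genes listed as factors of the eosinophil lineage changed in both directions. The list also holds cofactors and other regulators, and does not separate genes that favour the lineage from genes that oppose it. Of 14 measured, 8 rose, 2 fell and 4 were not called in each knockdown, with a median of 0.27 and 0.26 (all genes -0.01 and -0.02). Id2, an inhibitor of basic helix-loop-helix factors, rose by 1.05 and 1.05 (limma adjusted p = 2.79e-06 and 2.65e-06). Ikzf2, which encodes the zinc finger factor Helios, rose by 1.0 and 0.88. Trib1, whose product promotes degradation of C/EBP-alpha, rose by 1.09 and 0.99, and Cebpe, a C/EBP factor of late granulocyte maturation, rose by 0.53 and 0.58.

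Other factors of this list were named after their values were seen. Gata1, from a control level of 6.82 ± 0.12 (log2, SD, n = 3), rose by 0.69 and 0.68, and Gata2 rose by 0.74 and 0.71. Spi1, which encodes PU.1, rose by 0.23 and 0.27, and Zfpm1, a GATA cofactor, rose by 0.32 and 0.24. The genes of this eosinophil list that fell were Irf8, also a factor of monocytes and dendritic cells (-1.20 and -1.03), and Cebpa (-0.73 and -0.82). Xbp1, needed by maturing eosinophils, was not called (-0.09 and -0.02).

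Further surface and effector genes of eosinophils, a list also drawn up with earlier results known, rose more often than they fell. Of 12 measured, 7 rose, 1 fell and 4 were not called under Eed shRNA, and 7 rose, 2 fell and 3 were not called under Suz12 shRNA (median 0.61 and 0.60). Serpinb2, a serpin that macrophages also make, rose by 3.17 and 2.84. Alox15, the lipoxygenase of eosinophils and resident macrophages, rose by 1.43 and 1.77 (limma adjusted p = 1.03e-06 and 2.28e-07). Adgre1, a surface receptor gene shared with macrophages, rose by 1.13 and 1.23, and the histamine receptor gene Hrh4 rose by 1.09 and 1.03. Itga4, an integrin chain used in tissue entry and named after its values were seen, fell (-0.56 and -0.66). Cd101 made up the second fall under Suz12 shRNA, lay under the background guide, and 1 fall was left there when any of control replicates 1 and 2, Eed shRNA replicates 1 and 2, and Suz12 shRNA replicates 2 and 3 was dropped.

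The third class of granule protein, the eosinophil-associated ribonucleases, could be followed only in part. This family has near-identical copies, and 4 of 8 listed genes had a probe set with a single symbol. Ear6 rose by 0.88 and 0.92 (SE 0.08 each, limma adjusted p = 3.67e-05 and 2.51e-05), from 6.03 ± 0.11 in the controls. Rnase2a (-0.11 and -0.19), Rnase2b (0.05 and -0.01) and Ear14 (-0.01 and 0.00) were not called. Signal of near-identical copies on the same probes cannot be separated, so the value of Ear6 may not be of that gene alone.

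Genes listed as eotaxins and other ligands of Ccr3 changed little. Of 6 measured genes in this list, 1 was called higher in each knockdown, Ccl9, with a rise of 0.27 and 0.23. Whether the product of Ccl9 acts on Ccr3 was not examined, so its rise is not read as that of a Ccr3 ligand. Ccl24 (-0.03 and -0.11), Ccl8 (-0.02 and -0.05) and Ccl7 (0.06 and 0.01) were not called, nor were Ccl11 (0.02 and 0.00) and Ccl5 (0.03 and 0.04), named after their values were seen.

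**Figure D3:**
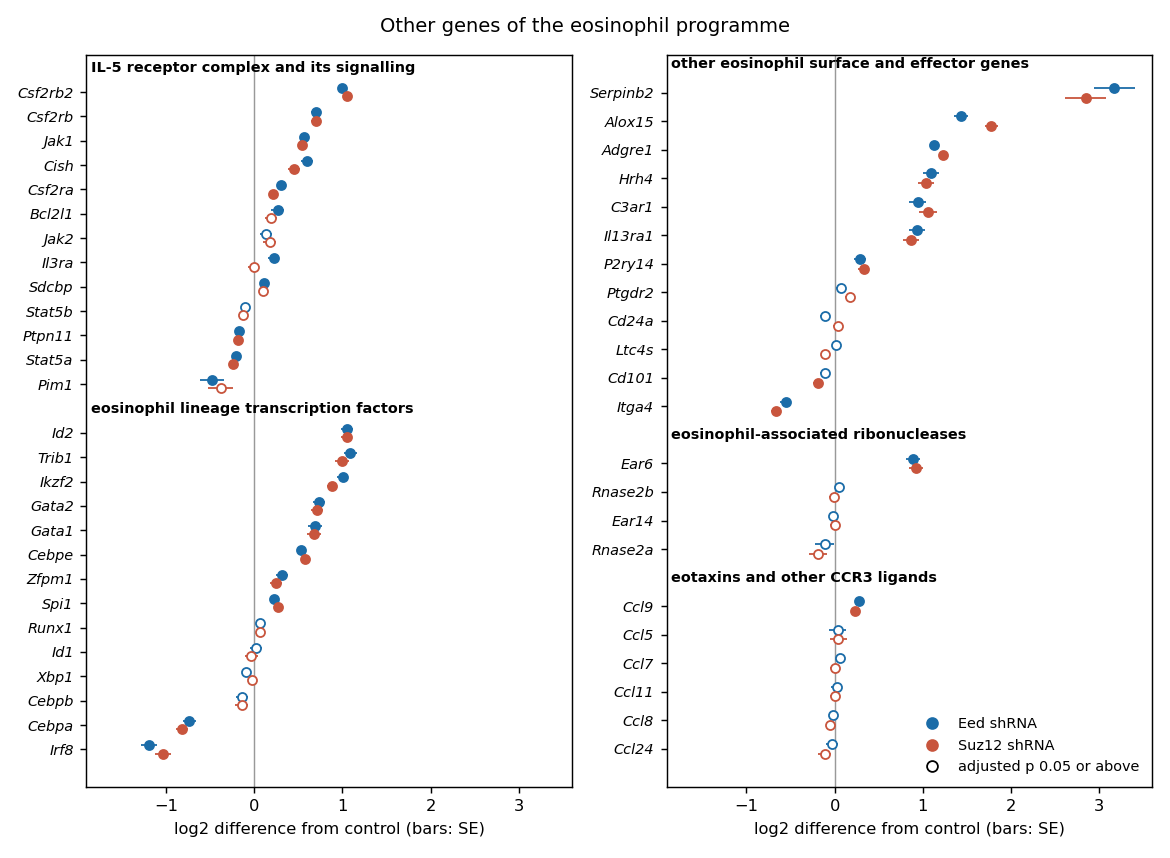
Log2 difference from the control (horizontal axis, bars are the SE, n = 3 arrays per group) of each measured gene in 5 lists, under Eed shRNA and Suz12 shRNA; filled dots have an adjusted p under 0.05 and open dots do not. Serpinb2 at 3.17 and 2.84 and Alox15 at 1.43 and 1.77 lead to the right, and Irf8 and Cebpa lie to the left. The genes listed as Ccr3 ligands cluster near 0.

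The genes beside the members along the chromosome were looked at next. Up to 3 measured genes on each side were taken, 28 in all without the members themselves. Under Eed shRNA 1 of them rose and 6 fell, with 21 not called. Under Suz12 shRNA 2 rose and 6 fell, with 20 not called. Over all genes 8.78% and 8.25% were higher and 13.1% and 12.9% lower, and no test was made of the neighbours as a group. Slc43a3, 21.95 kb before Prg2, fell (-0.25 and -0.21), and Tnks1bp1 on the far side was not called (-0.08 and -0.08). P2rx3, whose end overlaps that of Prg3, fell (-1.56 and -1.19), while its other, dimmer probe set changed by 0.00 and 0.06. Epx lies in a row of peroxidase genes. Mpo, the myeloperoxidase gene, fell (-0.23 and -0.27), Lpo was not called (-0.02 and 0.03), and Mks1, 0.19 kb from Epx, fell (-0.30 and -0.23). The call of Slc43a3 under Suz12 shRNA was lost without Suz12 shRNA replicate 1 (-0.19) or 3 (-0.20) and after cyclic loess (-0.17).

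Of the 4 neighbours of Ccr3, 2 were called in each knockdown, in opposite directions. Ccr1, a chemokine receptor of monocytes and granulocytes that lies 49.13 kb away, rose by 1.10 and 1.01. Ccr2, the monocyte chemokine receptor 70.23 kb away on the other side, fell (-0.81 and -1.10). Ccr1l1 between Ccr1 and Ccr3 was not called (0.05 and 0.02). None of the 6 neighbours of Il5ra was called in either comparison, and beside Siglecf Zfp715 alone was (-0.36 and -0.36). That call was lost after cyclic loess (-0.32 and -0.31), under Suz12 shRNA also in a fit of only those 2 groups, and under Eed shRNA when control replicate 1 (-0.34), control replicate 3 (-0.31), Eed shRNA replicate 2 (-0.34) or Eed shRNA replicate 3 (-0.32) was left out, and under Suz12 shRNA without those same 4 arrays or without Suz12 shRNA replicate 2 (-0.23). Aplnr, the other gene called higher under Suz12 shRNA (0.30), lost its call in a fit of only those 2 groups and without control replicate 1 (0.33) or 3 (0.23), without Eed shRNA replicate 2 or 3 (0.30 each), and without Suz12 shRNA replicate 2 (0.23) or 3 (0.30).

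**Figure D4:**
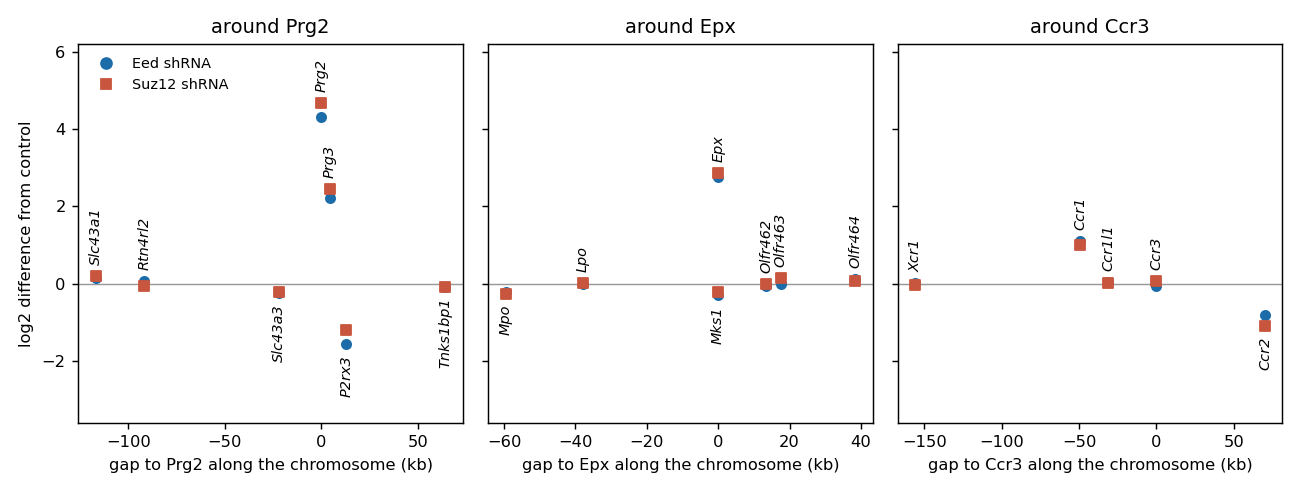
Log2 difference from the control (vertical axis) of Prg2, Epx and Ccr3, each at 0, and of the measured genes on both sides, by the gap between gene bodies in kb (horizontal axis); dots are Eed shRNA and squares Suz12 shRNA, each the difference of 2 group means of 3 arrays. Prg2 and Prg3 rise side by side while P2rx3 lies below 0, Epx stands alone among its neighbours, and Ccr1 and Ccr2 lie on opposite sides of 0 around Ccr3.

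Markers of other granulocytes, in lists also drawn up with earlier results known, moved in the same comparisons. Of 14 basophil and mast cell markers 3 rose, 1 fell and 10 were not called in each knockdown, and 9 of the 14 were not above the background guide in any group, among them the IgE receptor genes Fcer1a and Ms4a2 and the mast cell proteases Cma1, Mcpt4, Tpsb2 and Tpsab1. Cd200r3 (2.54 and 2.56), Cpa3 (1.60 and 1.39) and Hdc (1.33 and 1.32) rose, and the basophil protease gene Mcpt8 fell (-0.28 and -0.18), a fall that was not called under Suz12 shRNA after cyclic loess (-0.13). The summed level of the list was 12.45 to 12.48 in the controls, 13.42 to 13.51 under Eed shRNA and 13.39 to 13.40 under Suz12 shRNA (log2 of the sum of intensities). The brightest genes weigh most in such a sum. The median difference of the list from the control was 0.04 under Eed shRNA and -0.005 under Suz12 shRNA. Falls under Suz12 shRNA were 2 without control replicate 1, after centring on array medians and with dim genes left out.

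Of 12 neutrophil markers 9 rose and 3 were not called under Eed shRNA, and 11 rose and 1 was not called under Suz12 shRNA. Mmp9 (3.34 and 3.92), Ly6g (2.37 and 2.61), Stfa3 (1.60 and 1.65) and Ngp (0.99 and 1.58) were among them, and 1 of the 12 was not above the guide. The summed level was 13.25 to 13.31 in the controls, 14.28 to 14.36 under Eed shRNA and 14.59 to 14.70 with Suz12 knocked down. The part of these cells' programmes in the rise of the eosinophil granule genes was not tested.

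Of 10 monocyte and macrophage markers 1 rose, 2 fell and 7 were not called under Eed shRNA, and 2 fell and 8 were not called under Suz12 shRNA, with a summed level of 12.31 to 12.45, 12.32 to 12.40 and 12.24 to 12.32 in the 3 groups. Ccr2 and Cx3cr1 (-0.65 and -0.62) fell, and Csf1r was not called (0.07 and 0.10). Of the 10, 5 were not above the guide in any group, Vcan among them, so with dim genes left out Vcan was not tested. Its rise (0.31) did not hold when control replicate 3 (0.26), Eed shRNA replicate 1 (0.27) or Eed shRNA replicate 2 (0.28) was dropped. Under Suz12 shRNA Vcan was called without Suz12 shRNA replicate 2 (0.28). Of 7 lymphoid markers measured, 7 were not called under Eed shRNA, and under Suz12 shRNA Ncr1 fell by 0.15 and 6 were not called. The call of Ncr1 did not hold when control replicate 1 (-0.14), control replicate 2 (-0.14) or Suz12 shRNA replicate 1 (-0.13) was dropped. Of the 7 lymphoid markers, 5 were not above the guide, and the summed level was 8.49 to 8.57 in the controls, 8.52 to 8.56 under Eed shRNA and 8.49 to 8.54 under Suz12 shRNA.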

How the data were processed

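Total RNA was hybridised to 9 Affymetrix whole-transcript arrays, 3 per group. The authors deposited 1 log2 value per probe set and array, made with RMA per the submitters' processing notes; its version is not given in the sources used here. Of 34760 probe sets, 22961 had a gene name in GEO's platform annotation and 21640 a single symbol, which gave 19937 genes. Where a gene had several, the brightest on average was kept. Symbols were updated to RefSeq by gene number for 21553 probe sets.

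Differences were fitted with limma 3.58.1 in R 4.3.3, 1 mean per group over all 9 arrays, and p-values (two-sided) were adjusted by Benjamini-Hochberg over all genes. The fit was tested on simulated data. The number of arrays limits the precision (6 residual degrees of freedom). The 6 genes and all gene lists were chosen with earlier results of these data known. Named genes were the 6 genes, up to 4 per list with the smallest p for both knockdowns against the control, the 3 nearest patterns and the chromosomal neighbours; any other gene was picked out with its values in view, as stated there. Alternatives were quantile, cyclic loess and median scaling, a filter on dim genes, a replicate block, another variance prior, fits of 2 groups, the mean of a gene's probe sets, and each array left out.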

Additional observations from a re-analysis of the deposited data

Results flagged for a closer look

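The response of Mmp9, a neutrophil granule gene and the gene with the pattern nearest to Prg2, differed between the knockdowns. It was higher under Suz12 shRNA than under Eed shRNA by 0.57 (log2, SE 0.09, limma adjusted p = 0.0352). Ngp, a neutrophil granule protein gene, was higher under Suz12 shRNA by 0.59 (SE 0.05, limma adjusted p = 0.000617). Of the 12 neutrophil markers 5 were called in this contrast, all higher under Suz12 shRNA, beside 0.176% of all genes called in either direction. The other 3, picked out with their values in view, were Ltf (1.02, limma adjusted p = 0.000167), Camp (0.69, limma adjusted p = 0.000854) and Lcn2 (0.40, limma adjusted p = 0.0138). Over all genes the number called in this contrast fell from 35 to between 8 and 18 when 1 knockdown array was left out. Whether the calls of these 5 genes hold under the alternatives was not examined. Groups of 3 arrays were not tested for outliers.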

How the results depend on the processing

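The differences of the 6 genes from the control are a description and were given no test under the alternatives. Prg2 ranged from 4.21 to 4.39 (log2) under Eed shRNA and from 4.57 to 4.79 under Suz12 shRNA, and Il5ra from 0.67 to 0.88 and from 0.94 to 1.14. With dim genes left out Ccr3 had no value. No member was called between the knockdowns under any alternative, the lowest adjusted p by limma being 0.0791 for Prg2. The number of genes called between the knockdowns was 35, and 8 to 37 with 1 array left out. The difference of Siglecf between the knockdowns, -0.03, ranged from -0.0903 to 0.0049 with 1 array left out and was above 0 without Eed shRNA replicate 3 (0.0049) or Suz12 shRNA replicate 3 (0.0032); its cause was not tested. For other named genes, 72 differences from the control were followed, and none between the knockdowns. Under the alternatives 1190 values of these 72 differences kept the call or its absence, 29 lost the call and 1 gained it. Direction was compared only for differences called in the main fit or under the alternative, and was kept there.

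The replicate block gave 4242 genes called under Eed shRNA, 4049 under Suz12 shRNA and 25 between the knockdowns, against 4352, 4222 and 35 without it. Deviations of same-numbered arrays correlated between -0.17 and 0.20 over 9 pairs, and those of other arrays between -0.33 and 0.27 over 18 pairs. Of the 9 arrays 4 correlated best with their own number, so the numbers were not taken as pairs. Il5ra and Ccr3 lie near or under the background guide, where differences are compressed. The control means of Prg2 (6.49) and Epx (6.48) also lie near the guide.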
